A study of Homo sapiens with 12 samples.

Results

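The elements described here are 72 designed Pumilio response elements of 8 bases that keep TGTA at positions 1 to 4 and any base at position 5, and that carry 2 substitutions in the last 3 bases, the first of them always at position 6. The rule that picks them uses sequence alone, though they were chosen with earlier results of these data known. Each differs from the consensus, T, G, T, A, any base, A, T, A from the 5′ end, at exactly positions 6 and 7 (36 elements) or positions 6 and 8 (36 elements). They are 72 of the 1006 library entries that were listed in all 12 libraries, of which 1005 are sequences of 8 bases. RBPscan records RNA binding inside living cells through the edits that a fused deaminase leaves on a nearby recorder hairpin. Here human PUM2 joined to a mutated ADAR catalytic domain, hsPUM2-ADARcdMUT, met a recorder mRNA library in HEK293T cells, a line from human embryonic kidney, of genotype WT. The labels give 4 groups of 3 biological replicates: hsPUM2-ADARcdMUT non-induced, hsPUM2-ADARcdMUT at 25 ng, hsPUM2-ADARcdMUT at 250 ng, and ADARcdMUT, the catalytic domain without PUM2, at 1000 ng. The series gives doxycycline, which turns on suitably built transgenes, as the inducer of the fusion; the sample titles name neither substance nor volume for the amounts. No label names a loss of the endogenous PUM proteins in any group.

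Pumilio proteins repress mRNAs by binding elements in 3′ UTRs. Their RNA-binding domain is a curved row of repeats, each of which contacts a single base, and it lies antiparallel to the RNA, so the bases at the 3′ end of the element are read by the repeats nearest the N-terminus. UGUA at the 5′ end is the most conserved part of known targets, whereas the base at position 5 varies among them. ADAR turns adenosine into inosine, which is read as G, so an edit appears as an A-to-G change in the recorder. Levels of editing are given as a percent: edits counted in all reads of an element, over 7 recorder adenosines for each of its reads in that library.

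The sequences on which the results turn are given in DNA letters, 5′ to 3′, with the substituted bases in capitals. The first group holds intact elements, the second holds single substitutions that are parents of the members described below, and the rest are members at the top, at the bottom and at the extremes of non-additivity.
Intact, A at position 5: tgtaaata
Intact, C at position 5: tgtacata
Intact, G at position 5: tgtagata
Intact, T at position 5: tgtatata
A6T alone: tgtatTta
A8T alone: tgtatatT
A6G alone: tgtacGta
A8T alone, C at position 5: tgtacatT
A6C alone: tgtaaCta
T7C alone: tgtaaaCa
A6T with A8T: tgtatTtT
A6T with A8T, A at position 5: tgtaaTtT
A6T with A8T, C at position 5: tgtacTtT
A6T with A8T, G at position 5: tgtagTtT
A6G with A8T: tgtaaGtT
A6T with T7A: tgtatTAa
A6C with A8C: tgtagCtC
A6C with T7G: tgtagCGa
A6G with T7G: tgtagGGa
A6G with T7G, C at position 5: tgtacGGa
A6G with A8T, C at position 5: tgtacGtT
A6C with T7C: tgtaaCCa

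The 12 libraries held 11235321 to 25127959 reads, and each of the 72 elements had between 5951 and 46163 reads in every library. Counting error of a member's share of edited reads was 0.218 percentage points in the non-induced libraries, 0.256 at 25 ng, 0.295 at 250 ng and 0.210 with ADARcdMUT. On the same measure the variance among replicates of the members was 2.45 to 5.72 times that of binomial counting, so the spread between libraries is given as the error. Element levels relative to the library median were much more repeatable at 250 ng, where replicate libraries correlated at 0.923 to 0.939 across elements, than in the non-induced libraries, at 0.340 to 0.407, or with ADARcdMUT, at 0.227 to 0.292.

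Induction of hsPUM2-ADARcdMUT raised editing on every one of the 72 elements, to about the level of the library as a whole. The median level of the 72 was 8.01% ± 0.0571 at 250 ng, against 1.82% ± 0.0888 in the non-induced libraries (SD, n = 3 each), a 4.40-fold difference of 6.19 percentage points. Over all 1006 elements the median was 7.87% ± 0.0991 at 250 ng and 1.82% ± 0.0991 in the non-induced libraries. At 25 ng the 72 elements had a median of 4.40% ± 0.242, 2.42 times the non-induced one, beside 4.34% ± 0.194 over all elements. All 72 were called higher at 250 ng and at 25 ng than without induction (limma on log2 odds of editing, Benjamini-Hochberg over 1006 elements, call at an adjusted p under 0.05), as were 100% of all elements tested. In every member the 3 libraries at 250 ng lay above the 3 at 25 ng, and these above the 3 non-induced ones. This ordering was not counted over all elements, of which 100% were also called higher at 250 ng than at 25 ng. Single members gained 3.66-fold to 5.48-fold at 250 ng (median 4.35) and 2.07-fold to 2.96-fold at 25 ng (median 2.37).

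ADARcdMUT without PUM2 left the 72 elements at 1.94% ± 0.112, against 1.82% ± 0.0888 without induction of the fusion. No member was called in that comparison (background 0.199% of elements higher), and 13 were higher and 0 lower at an unadjusted p under 0.05, beside 173 and 4 of all elements. The log2 odds were above the non-induced ones in 61 of the 72, beside 826 of all 1006 elements. After each library was centred on its median, 0 were again called. At an unadjusted p under 0.05, 5 were then higher and 4 lower, beside 61 and 73 of all elements. A quasi-binomial model also called 0. Without ADARcdMUT replicate 3, 4 were called in absolute level, a count not taken over all elements. The libraries of the 2 groups overlapped in 63 of the 72 elements, and in the other 9 all ADARcdMUT libraries were higher. This overlap was not counted over all elements, so it does not set the 72 apart. Relative to the library median the changes ran from -0.26 to 0.27 in log2 odds.

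The gain at 250 ng lay both in how many reads were edited and in how many edits an edited read carried. For the 72 elements the share of reads with at least 1 edit was 22.2% ± 0.307 at 250 ng, against 6.95% ± 0.0863 in the non-induced libraries, and an edited read carried 2.52 ± 0.0276 edits at 250 ng against 1.84 ± 0.0798 (SD over 3 libraries of the per-library median). Over all elements these values were 22.3% ± 0.402 and 2.48 ± 0.0176 at 250 ng. The intact elements had 29.2% ± 0.287 of reads edited at 250 ng and 3.20 ± 0.0383 edits per edited read, so they stood above the 72 on both measures.

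Among the 1005 sequences of 8 bases ordered by level at 250 ng, the best placed of the 72 was at rank 72, the median rank was 331.5 and the lowest was 1001. Only 3 members were among the top 100, and 47 lay above the median of the other sequences. The range at 250 ng was 7.03% to 9.15%. None reached the lowest intact element, at 11.5%, and none passed the median of the 12 single substitutions at position 6, at 9.53%. The lowest of those, A6C with G at position 5, had 8.14%, and 25 members were above it.

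The 72 had the lowest levels among the classes with changes confined to the last 3 bases. Class medians at 250 ng were 7.98% ± 0.0398 for positions 6 and 7 together and 8.07% ± 0.0446 for positions 6 and 8. Substitution of positions 7 and 8 together, with A6 intact, left 8.70% ± 0.117 (36 elements). Single substitutions left 9.55% ± 0.0765 at position 6, 9.14% ± 0.191 at position 7 and 10.3% ± 0.234 at position 8 (12 elements each), and the 4 intact elements had 13.3% ± 0.288. In the non-induced libraries the same classes lay between 1.74% ± 0.104 and 1.84% ± 0.0844, with SDs of 0.0608 to 0.135.

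How far the 2 substitutions lowered the induced gain was measured within each library, as the log2 odds of editing of an element minus those of the intact element with the same base at position 5. On this measure, for 250 ng minus non-induced, all 72 were below the intact element, as were 99.3% of the 840 single and double substitutions (limma, Benjamini-Hochberg over the 840). Their median difference was -0.80 and the range -1.06 to -0.54. The medians were -0.81 for positions 6 and 7 and -0.78 for positions 6 and 8, beside -0.64 for positions 7 and 8 and -0.50, -0.48 and -0.40 for single substitutions at positions 6, 7 and 8. The median over all 840 was -0.81. At 25 ng all 72 were again below, as were 99.5% of the 840, with a median of -0.73; both comparisons use the same non-induced libraries.

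A second substitution lowered the gain further in most members. Against the parent that carries only the position 6 change, 49 of the 72 gained less at 250 ng, and against the parent that carries only the position 7 or 8 change, 56 did; none gained more than either parent (limma, Benjamini-Hochberg over 1512 pairs of a double substitution and a parent, of which 45.3% were called lower and 0.926% higher). The median difference was -0.29 from the position 6 parent, with all 72 below 0, and -0.36 from the other parent, with 69 below 0. The members below both parents numbered 39, those below only the position 6 parent 10, those below only the other parent 17, and those below neither 6. The count against the position 6 parent fell to 30, 32 and 30 without 250 ng replicate 1, 2 and 3, and to 29 when the share of edited reads was used instead. At 25 ng, where 37.4% of all pairs were called lower and 0.595% higher, 37 members were below the position 6 parent and 47 below the other one.

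The further loss on adding a change at position 6 differed in size with the base already changed, a difference between bases that was not tested. Members with T7C had 7.99% ± 0.0194 at 250 ng, against 8.44% ± 0.151 for T7C alone. Of these 12, only 3 were below their T7C parent, with a median difference of -0.09 in log2 odds, whereas 8 were below their position 6 parent. Members with A8T had 8.46% ± 0.114, against 11.3% ± 0.219 for A8T alone, the highest of the single changes at these 3 positions. All 12 of those were below their A8T parent, with a median of -0.45, whereas 6 were below their position 6 parent, with a median of -0.23. Members with T7A, T7G, A8C and A8G were below the parent that carries that change in 10, 11, 8 and 12 of 12 cases. Over all elements the median at 250 ng was 7.87% ± 0.0991, much nearer to T7C alone than to A8T alone. The part of this starting level in the size of the further loss was not tested.

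Relative to the library median, few of the 72 stood apart. For 250 ng minus non-induced, 4 members were higher and 1 was lower, against 9.64% higher and 3.38% lower over all 1006 elements. At an unadjusted p under 0.05 the counts were 10 and 4, beside 160 and 103 of all 1006 elements. With the arcsine square root of the level the calls were 12 and 4, in a fit of only these groups 9 and 3, and without ADARcdMUT replicate 1 or 2 the higher calls were 7. Calls under these settings were not counted over all elements, and the 9.64% and 3.38% belong to the main fit. The median change of the 72 was 0.01 in log2 odds (under 0.01 in size for positions 6 and 7, and 0.06 for positions 6 and 8) and that of all elements was 0.01. All 5 calls were among members with positions 6 and 8 changed. In the single substitutions at position 6 the count was 9 of 12 higher, with a median of 0.36, and in positions 7 and 8 together it was 13 of 36, with a median of 0.17.

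The 4 members that rose above the library median all ended in T, with A6T and A8T in 3 of them and A6G with A8T in the other. tgtatTtT had the highest level of the 72 at 250 ng: 8.91%, 9.24% and 9.30%, against 1.58%, 1.88% and 1.55% in the non-induced libraries. Its 25 ng libraries were at 4.84%, 5.47% and 4.51%, and its ADARcdMUT libraries at 2.15%, 1.95% and 1.79%. The 250 ng libraries were thus far above all others, while the ADARcdMUT and non-induced libraries overlapped. The gain was 5.48-fold, the highest among the 72, and 0.37 above the library median in log2 odds (SE 0.06, adjusted p = 0.000596). Its parent with A6T alone, tgtatTta, had 10.1% ± 0.308 at 250 ng and its parent with A8T alone, tgtatatT, had 11.8% ± 0.481. The gain of tgtatTtT differed from that of the A6T parent by -0.02 (SE 0.15, adjusted p = 0.920), whose non-induced libraries spread over 1.55%, 2.19% and 1.78%. It differed from that of the A8T parent by -0.43 (SE 0.11, adjusted p = 0.00421).

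tgtaaTtT, the same 2 changes with A at position 5, was edited at 8.59%, 9.01% and 9.12% at 250 ng, against 1.60%, 1.73% and 1.69% without induction. With ADARcdMUT it had 1.59%, 1.71% and 1.71%, within the range of the non-induced libraries apart from 1 library just under it. It rose by 0.32 relative to the library median (SE 0.07, adjusted p = 0.00350), and its gain differed from that of its A6T parent by -0.24 (SE 0.08, adjusted p = 0.0284). tgtaaGtT, with A6G and A8T, had 8.72%, 8.62% and 8.92% at 250 ng, against 1.61%, 1.69% and 1.75% without induction, a relative rise of 0.28 (SE 0.05, adjusted p = 0.00153). The groups lay far apart in both elements.

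tgtacTtT had 8.60%, 8.75% and 8.97% at 250 ng, against 1.58%, 1.97% and 1.61% without induction, 1 of which stood above the other 2. Its relative rise of 0.26 (SE 0.08, adjusted p = 0.0490) was near the threshold and was lost without any single 250 ng or 25 ng library and without non-induced replicate 1 or 3 (adjusted p up to 0.157 over the settings run). The form with G at position 5, tgtagTtT, was lower, at 7.82%, 7.92% and 8.19% at 250 ng, against 1.62%, 1.90% and 1.60% without induction, and was not called (0.12, SE 0.06, adjusted p = 0.196). The 4 forms of A6T with A8T had a median of 8.84% ± 0.226 at 250 ng, the highest of the 18 combinations of a base at position 6 with a base at position 7 or 8, against 1.69% ± 0.168 without induction.

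The rest of the 8 highest relative changes did not pass. tgtatTAa, with A6T and T7A, had 8.42%, 8.52% and 9.20% at 250 ng, against 1.60%, 1.61% and 1.89% without induction (0.26, SE 0.09, adjusted p = 0.0663). tgtatGtT, with A6G and A8T, reached 8.85% ± 0.0764 at 250 ng, against 1.82% ± 0.0266 (0.19, adjusted p = 0.228), and it holds a second TGT at positions 5 to 7. tgtaaCtT and tgtaaTtC changed by 0.17 each (adjusted p = 0.0537 and 0.1004). Only 3 members contain a second TGT, all with T at position 5 and A6G, and their levels at 250 ng were 8.01% to 8.85%.

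At the low end stood elements with G at position 5 or with A6G and T7G. tgtagCtC, with A6C and A8C, was the member called lower: 7.56%, 7.64% and 7.54% at 250 ng, against 1.95%, 1.99% and 1.99% without induction. All 3 libraries at 250 ng were below the library medians, and the non-induced ones were above theirs. The gain was 3.84-fold and the relative change -0.18 (SE 0.06, adjusted p = 0.0435), a call that was lost without any single 250 ng or 25 ng library and without non-induced replicate 1 or 3, with adjusted p up to 0.186 over the settings run. tgtacGGa had the largest relative decrease in size, -0.24 (SE 0.08, adjusted p = 0.0670), and did not pass: 7.58%, 7.50% and 7.25% at 250 ng, against 1.97%, 2.31% and 1.82% without induction. tgtagCGa, tgtagCCa, tgtagGtC and tgtagGtT, all with G at position 5, had values of -0.16, -0.15, -0.14 and -0.14 (adjusted p = 0.117, 0.193, 0.423 and 0.336). The lowest level of the 72 at 250 ng belonged to tgtagGGa, with 6.98%, 7.28% and 6.82%, against 1.65%, 1.82% and 1.59% without induction; since it was low in both groups, its relative change was only -0.06 (SE 0.10, adjusted p = 0.740).

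The level at 250 ng differed with the bases at positions 5 to 8. For each pair of substitutions there are 4 members that differ only at position 5, which gives 18 such sets. At 250 ng T was the highest in 14 of the 18 sets and G the lowest in 15. At 25 ng the counts were 11 and 13, in the non-induced libraries 5 and 2, and with ADARcdMUT 8 and 4. By class median at 250 ng, T at position 5 had 8.37% ± 0.0923, C 8.09% ± 0.0518, A 7.99% ± 0.0212 and G 7.58% ± 0.0233, against 1.83% ± 0.0867, 1.85% ± 0.0762, 1.78% ± 0.0912 and 1.87% ± 0.0972 without induction. The intact elements also had G lowest, at 11.5% ± 0.195 for tgtagata at 250 ng beside 13.2% ± 0.328 for tgtaaata.

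At position 6, T was the highest substituted base in 18 of 24 sets at 250 ng and C in none. At 25 ng T was the highest in 10, G in 10 and C in 4, and in the non-induced libraries T was the highest in 4 and the lowest in 15. At position 7, A was the highest in 10 of 12 sets at 250 ng and G the lowest in all 12; at 25 ng the counts were 8 and 10, and without induction A was the highest in 2 and G the lowest in 5. At position 8, T was the highest in 10 of 12 sets at 250 ng and the lowest in none; at 25 ng the counts were 8 and 2, and without induction it was the highest in 2 and the lowest in 7. With ADARcdMUT, T at position 6 was the highest in 9 sets and the lowest in 10, and C was the highest in 10. In the same libraries A at position 7 was the highest in 3 and G the lowest in 5. T at position 8 was there the highest in 4 and the lowest in 4. These counts are descriptions with no test, and the sets share libraries and bases.

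Base composition went with the level too. Members with no G or C at positions 5 to 8 (4 elements) had 8.81% ± 0.331 at 250 ng, those with 1 had 8.25% ± 0.160 (20 elements), those with 2 had 7.93% ± 0.0886 (32 elements) and those with 3 had 7.63% ± 0.0629 (16 elements). Without induction the same classes had 1.69% ± 0.0792, 1.78% ± 0.114, 1.85% ± 0.0915 and 1.87% ± 0.0843. The same direction appeared at 250 ng in elements without TGT: 8.33% ± 0.145 with no G or C in the 8 bases (37 elements), 7.91% ± 0.153 with 1, 7.78% ± 0.124 with 2 and 7.73% ± 0.0610 with 3. The part of base composition in the high members was not tested.

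Differences among the 72 were measured most precisely where the fusion was induced. The SD over members of the mean relative log2 odds was 0.083 at 250 ng, beside a typical standard error of such a mean of 0.013 (median over members, 3 libraries), and 0.086 at 25 ng beside 0.034. In the non-induced libraries it was 0.079 beside 0.045, and with ADARcdMUT 0.092 beside 0.054. Across the 72 elements the relative levels at 250 ng and 25 ng correlated at 0.874 (Pearson), and those with ADARcdMUT and without induction at 0.386. The relative levels at 250 ng correlated at -0.180 with those without induction and at 0.157 with those with ADARcdMUT. These correlations run over elements that share bases and library preparation, and they are given as descriptions.

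Whether the losses from both substitutions add up was measured within each library as the log2 odds of the double substitution, minus those of both parents, plus those of the intact element. A positive value means that the double lost less than the sum of the single losses. For 250 ng minus non-induced, 8 of the 72 were positive and 1 was negative, against 38.4% positive and 0.132% negative among all 756 double substitutions (limma, Benjamini-Hochberg over the 756). The median of the 72 was 0.11, beside 0.34 over the 756 and 0.25 for positions 7 and 8, where 10 of 36 were positive. Positions 6 and 7 held 7 of the positive calls and positions 6 and 8 held 1. The count depended on the scale: with the arcsine square root it was 39 and with the share of edited reads it was 4, and it fell to 3 without any single 250 ng library. These counts were not taken over all 756, so the 38.4% above is not their background. At 25 ng 6 were positive and 1 negative, against 35.8% and 0.265%.

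The highest value belonged to tgtaaCCa, with A6C and T7C, at 0.69 (SE 0.16, adjusted p = 0.00496). It had 7.51%, 7.75% and 7.84% at 250 ng, against 1.69%, 1.82% and 1.85% without induction. At 250 ng its A6C parent tgtaaCta had 8.88% ± 0.150, its T7C parent tgtaaaCa 8.09% ± 0.195, and the intact tgtaaata 13.2% ± 0.328. The parents were much nearer to the library median than to the intact element, and the double lay slightly under both. tgtatCCa followed at 0.57 (SE 0.16, adjusted p = 0.0118). tgtatTCa, next in size at 0.47 (SE 0.23, adjusted p = 0.117), did not pass. Of the 12 members with T7C, 4 were positive, with a median of 0.38, and of the 12 with A8T none was, with a median of 0.00. The other 6 positive calls, from 0.33 to 0.47, included 5 members with G at position 5.

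tgtacGtT, with A6G and A8T, was the only double substitution of the 756 called negative at 250 ng. It had 7.96%, 8.03% and 7.97% at 250 ng, against 1.82%, 2.13% and 1.89% without induction. The intact tgtacata had 13.4% ± 0.379, the A6G parent tgtacGta 9.53% ± 0.188 and the A8T parent tgtacatT 11.5% ± 0.0835 at 250 ng, so the double was well below both. Its value was -0.39 (SE 0.14, adjusted p = 0.0364), and -0.41 at 25 ng (SE 0.14, adjusted p = 0.0319), from the same non-induced libraries. Those non-induced libraries were at the high end for this element, against 1.65%, 1.65% and 1.74% for its A6G parent. The call was lost with the arcsine square root (adjusted p = 0.0746), with the share of edited reads (0.283), without any single 250 ng library, and without 25 ng replicate 1 or non-induced replicate 1 or 2 (0.0520 to 0.106 over these 6). tgtacGGa, at -0.29, and tgtaaTtG, at -0.23, were the next lowest and did not pass (adjusted p = 0.1002 and 0.212).

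The 4 members called at 25 ng relative to the library median were all among the 5 called at 250 ng. tgtaaTtT and tgtatTtT were each higher by 0.32 than without induction (adjusted p = 0.00456 and 0.00260), tgtaaGtT was higher by 0.27 (adjusted p = 0.00299), and tgtagCtC had a change of -0.20 (adjusted p = 0.0303). These 3 and 1 members stand beside 7.06% of all elements higher and 2.19% lower, and both comparisons share the non-induced libraries. The lower call was lost without any single 250 ng or 25 ng library, and the higher calls were 5 without ADARcdMUT replicate 1. Between 250 ng and 25 ng themselves no member and no other element was called relative to the median (background 0%), 0 members had an unadjusted p under 0.05, and a quasi-binomial model called 0. In absolute level all 72 were higher at 250 ng than at 25 ng, as were 100% of elements.

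The ADARcdMUT libraries hold the deaminase without PUM2. Against them, at 250 ng, 3 members were higher relative to the median and 1 lower, beside 10.3% and 4.37% of all elements. The higher count was 1 without 250 ng replicate 1 and 7 without ADARcdMUT replicate 2 or non-induced replicate 2, and it was 13 when the arcsine square root of the level was fitted. Such counts were not taken over all elements. tgtaaTtT was higher by 0.42 (adjusted p = 0.000378) and tgtatTtT by 0.23 (adjusted p = 0.0198). The others were picked out after their values were seen: tgtatCAa, with A6C and T7A, was higher by 0.25 (adjusted p = 0.0143), with 8.79%, 8.46% and 8.61% at 250 ng against 1.87%, 1.80% and 1.74% with ADARcdMUT, while its non-induced libraries were at 1.70%, 2.20% and 2.04%. tgtagCGa had a change of -0.23 (adjusted p = 0.0235), with 7.20%, 7.32% and 7.32% at 250 ng against 2.11%, 2.01% and 2.14% with ADARcdMUT. At 25 ng tgtaaTtT was higher by 0.42 (adjusted p = 0.000528) and tgtacTtG by 0.21 (adjusted p = 0.0368), with none lower, beside 7.55% and 2.49% of elements; without any single 250 ng or 25 ng library 1 of these calls was left. Absolute levels of all 72 were higher than with ADARcdMUT at both amounts, as were 100% of elements.

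The number of reads per element was not used to choose the elements, though the editing level is computed per read. In edgeR's quasi-likelihood test no member and no other element differed between 250 ng and non-induced (background 0%), while 10 members were higher and 9 lower at an unadjusted p under 0.05; over all elements the unadjusted counts were 219 and 211. DESeq2 called 9 members higher and 4 lower, beside 16.3% and 14.6% of all elements. In edgeR the calls were 6 and 19 without 25 ng replicate 1 and 2, and 22 in a fit of only these groups. Changes ran from -0.23 to 0.21 in log2 reads. The highest was that of tgtatTtT, with 14956, 21931 and 14677 reads at 250 ng, against 10647, 8459 and 9569 without induction, a change of 0.21 after scaling for library size (adjusted p = 0.0771). tgtatTAa and tgtatTtC came next, at 0.18 and 0.16, and tgtaaGAa, tgtagGtC and tgtaaCAa were lowest, at -0.23, -0.22 and -0.20, none of which passed (adjusted p = 0.0766 to 0.0952 over these 6). The member with the highest level of editing was thus also the one with the largest increase in reads, and the part of the one in the other was not tested.

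Between 250 ng and ADARcdMUT, 8 members were higher in reads and 35 lower, beside 31.7% and 34.8% of all elements, with changes from -0.47 to 0.30. The remaining comparisons of reads, each with a background of 0%, gave no call. Unadjusted p under 0.05 was found for 3 members higher and 9 lower between 250 ng and 25 ng, beside 179 and 143 of all 1006 elements. For 25 ng and ADARcdMUT the counts were 2 and 18, beside 101 and 167 of all elements. For ADARcdMUT and non-induced they were 25 and 1, beside 160 and 95, and for 25 ng and non-induced no member had one. DESeq2 called 0 lower or higher between 250 ng and 25 ng and between 25 ng and non-induced, and 3 lower between 25 ng and ADARcdMUT, beside 0.994% higher and 1.59% lower over all elements. Between ADARcdMUT and non-induced it called 9 members higher and 0 lower, beside 7.91% and 1.62% of the elements it tested. In edgeR, 11 were called between 250 ng and 25 ng without 25 ng replicate 1. Without 25 ng replicate 2 the calls were 28 between 25 ng and ADARcdMUT and 12 between ADARcdMUT and non-induced, and without ADARcdMUT replicate 3 they were 16 in each. These calls with a library left out were not counted over all elements.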

How the data were processed

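PCR amplicons of the recorder 3′ UTR were sequenced in 12 HEK293T libraries, per the labels; the extraction text names zebrafish embryos, but HEK293T stands in all other labels. Names of the aligner and edit caller were not given in the sources used here. Per element, the deposited tables give counts (reads, edited reads, edits, all reads), percent of edited adenosines, percent of reads and an efficiency score made by the authors; the counts were used here. The lowest listed read count is 1015, and 16 elements not listed in all libraries were left out. No molecular identifiers are mentioned, so counting errors cover counting only.

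Members and lists were chosen with earlier results of these data known. Groups and replicate numbers come from the titles. The tested value was log2((edits + 0.5)/(7 × reads − edits + 0.5)), as measured, minus the library median, and as differences from parents and from the intact element within a library, in limma 3.58.1 (R 4.3.3), 1 fit of 12 libraries. Reads were tested with edgeR 4.0.16 (TMM) and DESeq2 1.42.0. All p-values are Benjamini-Hochberg adjusted over the whole table. Python 3.11.15 with pandas 2.3.3 and numpy 2.4.6 served for the rest. Named elements are the members called at 250 ng relative to the median, the 8 highest and 6 lowest relative changes, and the 3 highest and 3 lowest interactions and read changes. Read counts of replicates had a chi-squared of 6.24 to 202 per degree of freedom, and no library was counted as a duplicate. After centring on the library median, same-numbered libraries did not deviate together from element to element (r from -0.0946 to 0.0737 over 18 pairs). This check cannot show a shift shared by whole libraries, since the centring removes it. The main fit did not pair samples by number.

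On simulated data for 250 ng minus non-induced, the relative fit recovered 67% of log2 changes of size 0.25 and 100% of those of size 0.5 (1006 elements, 3 false of 170 calls), the parent fit 35.5% and 97.5% (1512 pairs, 8 false of 274), the intact-element fit 25% and 94% (840 elements, 1 false of 120), the interaction fit 18% and 57% (756 elements, 2 false of 77), and edgeR 93% of 1.25-fold and 100% of 1.5-fold changes (7 false of 200). The simulation gave all groups the same spread and drew elements independently. In the data the median replicate SD of the members' relative log2 odds was 0.022 at 250 ng and 0.059 at 25 ng. It was 0.078 without induction and 0.094 with ADARcdMUT, so the shares recovered hold for the simulated setting only. Alternatives were other pseudocounts, a minimum of 5000 reads, the arcsine square root, the share of edited reads, a quasi-binomial model, no trend, centring on elements without TGT, fits of only the 2 groups compared, upper quartile scaling, a replicate block and each library left out.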

Additional observations from a re-analysis of the deposited data

How the results depend on the processing

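No call of a single named element changed direction. The median level of the 72 at 250 ng and 25 ng did change sides of the library median with the measure, as given below. The rise of all 72 elements at 250 ng and 25 ng and their place below the intact element held at 72 of 72 in every setting run. tgtatTtT, tgtaaTtT and tgtaaGtT were called at 250 ng relative to the median in all settings (adjusted p at most 0.0349), whereas tgtacTtT, tgtagCtC and the interaction of tgtacGtT lost their calls in 11, 10 and 9 settings. The cause of these changes was not tested. With 3 libraries a group the counts of calls near the threshold are loose: for single named elements, 143 values under other settings and 205 without 1 library kept direction and side of the threshold, 19 and 13 came past it, and 8 and 22 fell short of it.

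Higher calls relative to the median were 12 (arcsine square root) and 9 (only the 2 groups) in place of 4 for 250 ng minus non-induced, 5 (arcsine) in place of 3 for 25 ng minus non-induced, 13 (arcsine) and 7 (at least 5000 reads, quasi-binomial, and centring on elements without TGT alike) in place of 3 for 250 ng minus ADARcdMUT, and 5 (arcsine), 1 (only the 2 groups) and 1 (replicate block) in place of 2 for 25 ng minus ADARcdMUT. Lower calls were 4 (arcsine), 0 (share of edited reads) and 3 (only the 2 groups) in place of 1 for 250 ng minus non-induced, 0 (share) in place of 1 for 25 ng minus non-induced, 2 (arcsine), 2 (share) and 0 (only the 2 groups) in place of 1 for 250 ng minus ADARcdMUT, and 1 (arcsine), 2 (share) and 1 (replicate block) in place of 0 for 25 ng minus ADARcdMUT. Positive interactions were 39 (arcsine) and 4 (share) in place of 8 at 250 ng, and 29 and 0 in place of 6 at 25 ng. The negative one was 0 on the arcsine scale, with the share and with the replicate block, at both amounts. Members below the position 6 parent at 250 ng were 29 (share) in place of 49. Calls in reads for 250 ng minus non-induced were 22 (only the 2 groups), 9 (replicate block) and 13 (DESeq2) in place of 0, and DESeq2 gave 3 for 25 ng minus ADARcdMUT and 9 for ADARcdMUT minus non-induced. Upper quartile scaling gave 22 higher and 23 lower in place of 8 and 35 for 250 ng minus ADARcdMUT. The replicate block, which rests on numbers that showed no pairing from element to element, changed no other count by over 1.5 times. Apart from those of DESeq2, calls under other settings were counted over the members only, with no share over all elements beside them.

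The level of the 72 as a ratio to the library median was 1.02 at 250 ng and 1.01 at 25 ng. It was 0.997 and 0.998 with the share of edited reads. The mean over members, set against the mean over all elements and not the median, gave 0.996 and 0.995. For positions 6 and 7 at 250 ng the ratio was 0.997 (share) and 0.987 (mean to mean) in place of 1.01. For positions 6 and 8 it was 0.998 and 1.005 in place of 1.02 at 250 ng, and 0.9996 and 1.003 in place of 1.02 at 25 ng. So the 72 lay just above the library median by the level and just below it by the share of edited reads. The ratios of means do not show a side of the median.

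Leaving out each library in turn gave these ranges, again counted over the members only. Higher and lower calls relative to the median were 3 to 7 and 0 to 2 for 250 ng minus non-induced (7 without ADARcdMUT replicate 1 or 2), 3 to 5 and 0 to 2 for 25 ng minus non-induced (5 without ADARcdMUT replicate 1), 1 to 7 and 0 to 2 for 250 ng minus ADARcdMUT (1 without 250 ng replicate 1), and 1 to 4 and 0 to 2 for 25 ng minus ADARcdMUT (4 without ADARcdMUT replicate 1). ADARcdMUT minus non-induced gave 0 to 1 relative to the median (1 without non-induced replicate 1) and 0 to 4 in absolute level (4 without ADARcdMUT replicate 3). Members below the position 6 parent at 250 ng were 30 to 55. Interactions were 3 to 11 positive and 0 to 1 negative at 250 ng, and 2 to 12 positive and 0 to 1 negative at 25 ng (12 without ADARcdMUT replicate 1, 2 without 25 ng replicate 1 or 2). Calls in reads were 0 to 19 for 250 ng minus non-induced (19 without 25 ng replicate 2), 0 to 11 for 250 ng minus 25 ng (11 without 25 ng replicate 1), 0 to 28 for 25 ng minus ADARcdMUT (28 without 25 ng replicate 2), 0 to 16 for ADARcdMUT minus non-induced (16 without ADARcdMUT replicate 3), and 5 to 11 higher and 27 to 35 lower for 250 ng minus ADARcdMUT (5 without 250 ng replicate 3).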
